A study of Mus musculus with 6 samples.

Results

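The white adipocyte was followed through 10 of its marker genes in mouse sciatic nerve, where fat cells lie in the epineurium, the outer sheath of the nerve: the secreted products Adipoq, Lep, Retn, Cfd and Rbp4, the lipid-handling and metabolic proteins Fabp4, Cidec and Car3, and the transcription factors Pparg and Cebpa. The genes were chosen by name, with earlier results of these data known. All 10 were matched to 1 Ensembl gene ID each among the 55335 IDs of the deposited table. All 10 also passed the filter of a mean of at least 1 FPKM (fragments per kilobase of transcript, scaled to library size) over the 6 libraries, as did 12860 genes in all. The icKO nerves (n = 3) came from mice with the genotype RhoAfl/fl ChATCreERT2+, in which a drug-inducible Cre recombinase is driven from the choline acetyltransferase locus, which is active in cholinergic neurons, among them the motoneurons of the spinal cord. The control nerves (n = 3) came from RhoAfl/fl mice without Cre, so the floxed allele of the small GTPase RhoA was shared by both groups. All nerves were taken at postnatal day 14. The labels give no strain, no sex, no drug schedule, and no statement that control mice received the inducing drug or that each library is 1 animal, so a p-value here reflects no more than how these libraries vary, which may be technical.

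A white adipocyte stores triglyceride in a single large lipid droplet and releases hormones that report on its energy store. Its identity is set during differentiation by the nuclear receptor PPARγ together with C/EBPα, which switch on each other and most of the genes of the mature fat cell. Leptin is released in relation to the amount of stored fat, adiponectin acts on insulin sensitivity, and adipsin is a protease of the complement system. The comparison asks how these transcripts differed between icKO and control nerves, and whether they were lower in one proportion, as the rule for choosing them asks. In RNA from whole nerve, fewer fat cells and less RNA per fat cell cannot be told apart.

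The libraries held an estimated 17800000 to 19500000 fragments in icKO and 17200000 to 20600000 fragments in control nerves. Rhoa itself was at 34.4 ± 1.75 FPKM in icKO and 37.9 ± 1.24 FPKM in control nerves (limma with Benjamini-Hochberg adjustment, hereafter BH; adjusted p = 0.195), a weak check because the nerve's own cells are not the target of the Cre driver. The sexes were mixed in the control group only: control replicate 2 had 46.1 FPKM of Xist and none of the Y-linked Ddx3y, and the other libraries had Ddx3y and almost no Xist. Skeletal muscle transcripts set icKO replicate 3 and control replicate 1 apart: the summed level of 22 muscle genes was 31.1, 46.0 and 1705 FPKM in icKO replicates 1, 2 and 3, against 1503, 302 and 408 FPKM in control replicates 1, 2 and 3. Of 21 tested muscle genes 1 was called lower and 0 higher (limma; 2 lower and 0 higher at an unadjusted p under 0.05). Of 12 tested Schwann cell genes 3 (25%) were called in each direction. Over all tested genes 22.1% were called lower and 20.8% higher.

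In icKO nerves 9 of the 10 genes were called lower and 0 higher (limma, adjusted p under 0.05; also 0 higher at an unadjusted p under 0.05), where 42.9% of all tested genes were called, 22.1% lower and 20.8% higher. The genes were lower by very unequal amounts. The mean level left in icKO nerves ranged from 1.75% of control for Lep to 66.8% for Cebpa. The 6 genes Lep, Retn, Car3, Rbp4, Cfd and Adipoq kept less than 20% of the control mean, and the 4 genes Pparg, Cidec, Fabp4 and Cebpa kept more than 40%. The median difference of the 10 genes was -1.94 on the log2(FPKM + 1) scale, against -0.01 over all tested genes. For the same 9 genes, all 3 icKO libraries lay below all 3 control libraries, a pattern seen in 28.9% of tested genes (28.4% had the opposite one). The number that fell was 8 to 10 when single libraries were left out, and 10 without both muscle-rich libraries. Some markers of another cell type were lower as well. Of 15 fibroblast markers 7 fell, 2 rose and 6 (Dcn, Col3a1, Pi16, Clec3b, Gsn and Ly6c1) did not pass. The summed level of the 15 overlapped between groups, at 2381 to 2434 FPKM in icKO libraries and 2034 to 3621 FPKM in control libraries. On the log2(FPKM + 1) scale Lum and Col14a1, genes of collagen-associated matrix proteins, fell most among these. They kept 14.0% and 16.4% of the control mean, and their ratios to Adipoq did not pass (limma, adjusted p = 0.394 and 0.637). Dpt and Sfrp4, matrix and secreted-factor genes chosen after their values were seen, kept 24.5% and 24.6%, and the largest rises of the list were those of Apod, to 224% of the control mean, and Pdgfra, to 154%. The part of fibroblasts in the levels of the 10 genes was not tested.

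**Figure D1:**
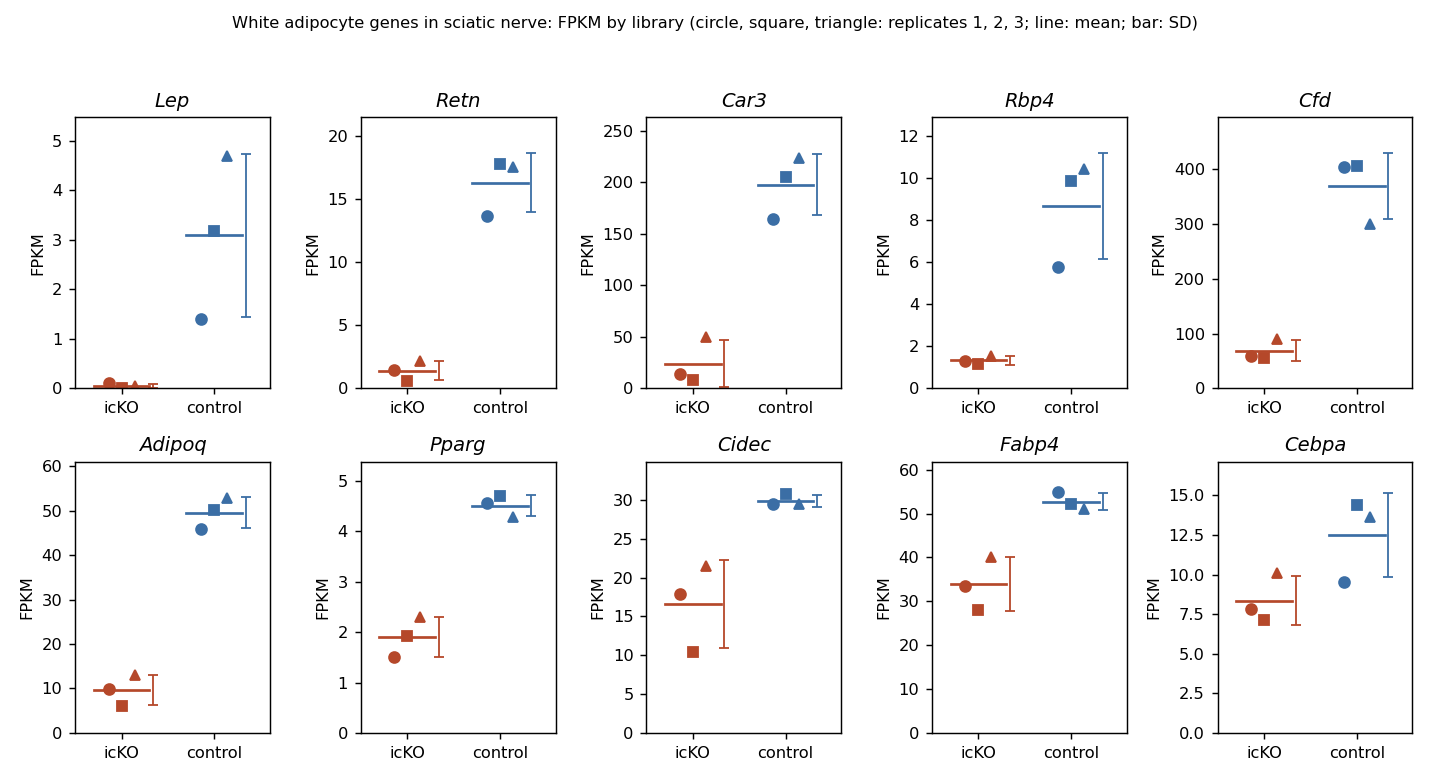
FPKM (linear axis from 0) of the 10 white adipocyte genes in icKO and control nerves, ordered by the level left in icKO nerves. Each symbol is 1 library (circle, square and triangle for replicates 1, 2 and 3), the line is the group mean and the bar the SD. The groups are apart in 9 panels, and in the Cebpa panel icKO replicate 3 at 10.1 FPKM lies above control replicate 1 at 9.50 FPKM.

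Among the secreted products, adiponectin served as the yardstick for the others because its gene is expressed in mature adipocytes with little contribution from other cells. Adipoq (ENSMUSG00000022878) was at 9.79, 6.12 and 13.0 FPKM in icKO libraries, against 45.9, 50.1 and 52.8 FPKM in control libraries. The control values lay within a narrow band and the icKO values were spread over a 2.13-fold range. The difference was -2.30 on the log2(FPKM + 1) scale (SE 0.23, limma, BH-adjusted p = 0.000955), and 19.5% of the control mean was left.

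Lep (ENSMUSG00000059201), the leptin gene, showed the smallest share left. It was at 0.101, 0.0157 and 0.0457 FPKM in icKO libraries, against 1.39, 3.18 and 4.69 FPKM in control libraries. Every icKO library was far below the lowest control library, and the control libraries themselves differed by 3.36-fold. At the estimated depths and the 3259-base transcript these values amount to about 6, 1 and 3 fragments in icKO libraries, against about 78, 214 and 314 fragments in control libraries. From the summed 10 and 606 fragments, icKO nerves held 1.71% of the control level per unit of depth, with an exact (Clopper-Pearson) 95% interval of 0.817% to 3.17% that covers counting error only. Of those 10 fragments 6 were in icKO replicate 1, and without that library the mean level left was 0.993% of control in place of 1.75%. On the log2(FPKM + 1) scale, which compresses a gene this low, the difference was -1.87 (SE 0.30, limma, BH-adjusted p = 0.00371).

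Retn (ENSMUSG00000012705) encodes resistin, a small cysteine-rich hormone that mouse adipocytes secrete. It was at 1.43, 0.617 and 2.13 FPKM in icKO libraries, against 13.6, 17.8 and 17.5 FPKM in control libraries, so that 8.55% of the control mean was left. The groups were well apart (difference -2.90, SE 0.24, limma, BH-adjusted p = 0.000633). Rbp4 (ENSMUSG00000024990), the plasma carrier of retinol, was at 1.32, 1.14 and 1.53 FPKM in icKO libraries, against 5.76, 9.85 and 10.4 FPKM in control libraries, with 15.3% left. Its icKO values were close together, and control replicate 1 was the lowest of its group. The difference of Rbp4 was -2.02 (SE 0.21, limma, BH-adjusted p = 0.000952).

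Cfd (ENSMUSG00000061780), the adipsin gene, was the most abundant of the 10 transcripts per length in both groups. It stood at 59.4, 55.7 and 90.9 FPKM in icKO libraries, against 404, 405 and 299 FPKM in control libraries. The highest icKO library was well under the lowest control library, and 18.6% of the control mean was left (difference -2.43, SE 0.21, limma, BH-adjusted p = 0.000717). Adipsin cleaves complement factor B bound to C3b, and the genes of both partners fell. C3 fell to 8.91 ± 3.54 FPKM in icKO nerves, against 28.3 ± 8.0 FPKM in control nerves, and Cfb to 4.74 ± 0.79 FPKM in icKO nerves, against 7.66 ± 0.87 FPKM in control nerves (SD, n = 3 each; limma, BH-adjusted p = 0.00706 and 0.0101). Both are also expressed by cells other than adipocytes.

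Car3 (ENSMUSG00000027559) encodes a cytosolic carbonic anhydrase that is abundant in white fat and in slow skeletal muscle. It was at 13.7, 8.16 and 50.4 FPKM in icKO libraries, against 165, 205 and 224 FPKM in control libraries. The 3 control values were similar, while icKO replicate 3 was 6.17-fold above icKO replicate 2. The difference was -3.37 (SE 0.59, limma, BH-adjusted p = 0.00504), with 12.2% of the control mean left, or 5.53% without icKO replicate 3. The slow-fibre muscle genes stood out in that same library: Myh7 was at 0.0285, 0.00445 and 10.9 FPKM in icKO replicates 1, 2 and 3 and at 0.0204 to 0.0272 FPKM in control libraries, and Myl2 at 0.0288, 0 and 17.9 FPKM in icKO replicates 1, 2 and 3 and at most 0.0238 FPKM in control libraries. Without icKO replicate 3 the difference of Car3 was -4.09, and over all alternatives it was -4.21 to -2.84 (limma, BH-adjusted p = 0.00105 to 0.0215).

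Cidec and Fabp4, which serve lipid storage inside the fat cell, kept more of their level. Cidec (ENSMUSG00000030278) encodes a protein at the contact site between lipid droplets that lets them fuse into a large one. It was at 17.8, 10.4 and 21.5 FPKM in icKO libraries, against 29.4, 30.7 and 29.5 FPKM in control libraries, with 55.5% of the control mean left. The control values were nearly equal and all above the icKO values. Its fall (difference -0.87, SE 0.24, limma, BH-adjusted p = 0.0253) no longer passed without control replicate 1, 2 or 3 or without a filter (adjusted p = 0.0598, 0.0706, 0.0674 and 0.0583), with a range of 0.00915 to 0.0706 over the alternatives.

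Fabp4 (ENSMUSG00000062515) encodes the fatty acid-binding protein of adipocytes, which capillary endothelium and macrophages also make. It was at 33.5, 28.1 and 40.2 FPKM in icKO libraries, against 54.8, 52.1 and 51.1 FPKM in control libraries, with 64.4% left (difference -0.63, SE 0.13, limma, BH-adjusted p = 0.0098). The groups did not overlap. Of 15 endothelial markers, 5 were lower (33.3%), 2 higher (13.3%) and 8 did not pass, where 22.1% of all tested genes were lower and 20.8% higher. The summed level of the endothelial markers was 139 to 158 FPKM in icKO libraries and 168 to 169 FPKM in control libraries. Vwf had the largest called fall of these, to 5.42 ± 0.47 FPKM in icKO nerves, against 10.9 ± 1.18 FPKM in control nerves, and Ramp2 the largest called rise, to 17.2 ± 1.03 FPKM in icKO nerves, against 11.5 ± 0.81 FPKM in control nerves (SD, n = 3 each). None of the 13 tested macrophage markers passed in limma (1 was lower and 0 higher at an unadjusted p under 0.05), and the markers' summed level was 148 to 152 FPKM in icKO libraries and 126 to 276 FPKM in control libraries. The part of these other cell types in the level of Fabp4 was not tested.

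The regulators also kept more of their level than the hormones. Pparg (ENSMUSG00000000440), the nuclear receptor that drives adipocyte differentiation, was at 1.51, 1.92 and 2.31 FPKM in icKO libraries, against 4.57, 4.70 and 4.28 FPKM in control libraries. The groups were apart with 42.3% of the control mean left (difference -0.93, SE 0.12, limma, BH-adjusted p = 0.00174). Cebpa (ENSMUSG00000034957), its partner in differentiation, was at 7.85, 7.15 and 10.1 FPKM in icKO libraries, against 9.50, 14.4 and 13.6 FPKM in control libraries. These groups overlapped, because icKO replicate 3 was above control replicate 1, and the difference of -0.52 (SE 0.18) did not pass (limma, BH-adjusted p = 0.0553). It passed without icKO replicate 3, without control replicate 1 or without both (adjusted p = 0.0341, 0.018 and 0.0066). It also passed with each of the other scalings, to a common sum, by median of ratios and by quantiles (adjusted p = 0.0493, 0.0394 and 0.0341), and with array weights (adjusted p = 0.0167). Over all alternatives the adjusted p was 0.0066 to 0.158, and the difference was negative in each. Which cells of the nerve carried Pparg and Cebpa was not measured.

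**Figure D2:**
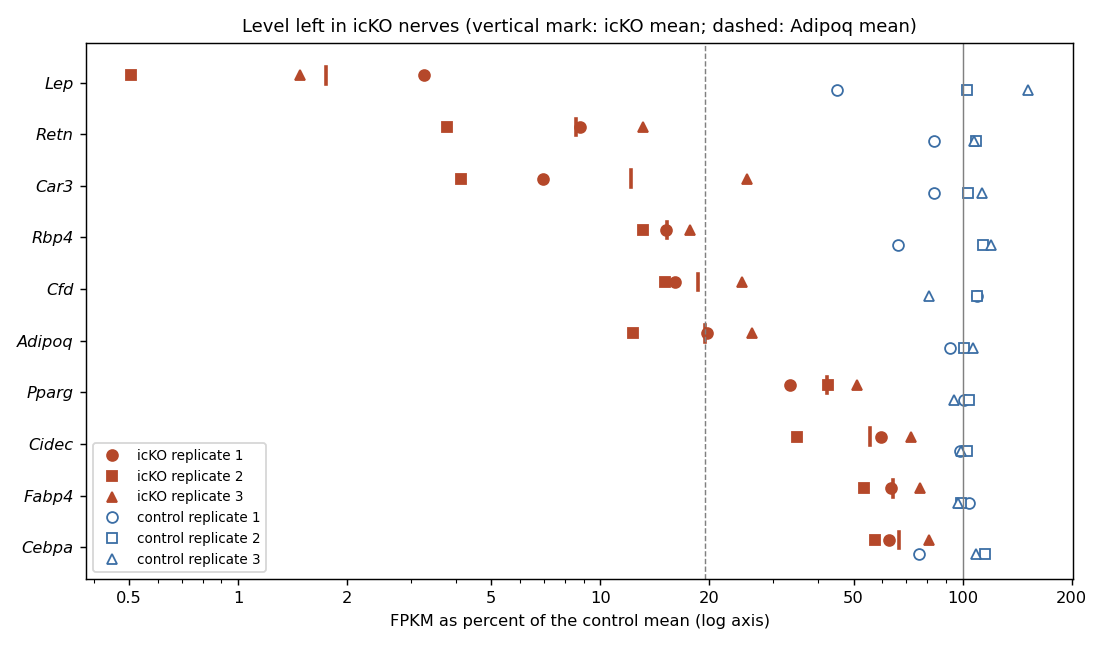
Level of each gene in each library as a percentage of its control mean (log axis), with icKO libraries as filled and control libraries as open symbols and genes ordered by the icKO mean (vertical marks). The marks run from 1.75% for Lep to 66.8% for Cebpa, and the dashed line gives the 19.5% of Adipoq, near which Rbp4 and Cfd lie.

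To ask about proportion directly, the FPKM of each of the other 9 genes was divided by that of Adipoq in the same library, so that a gene which fell in proportion to Adipoq has the same ratio in both groups. Since Adipoq fell steeply, 97.5% of the other tested genes were called in this ratio, 97.2% as higher and 0.264% as lower in icKO nerves, and for 96.0% and 0.296% of them all icKO ratios lay above or below all control ratios. The 9 genes were split between 3 outcomes. For 2 genes every icKO ratio was below every control ratio, for 4 genes every icKO ratio was above, and for 3 genes the groups overlapped. An exact two-sided permutation test over 3 against 3 libraries cannot give a p below 0.1, which each of the 6 separated genes reached. The limma p-values given below cannot be taken at face value and can be too small. Every ratio contains the same 6 Adipoq values, so the spread that limma shares across genes is not independent. In this fit each SE and 95% interval came from that shared spread alone, with nothing of the gene's own spread between libraries. They can be too wide for steady ratios, such as those of Cidec, and too narrow for scattered ones, such as those of Car3.

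Cfd and Rbp4 were the genes nearest to proportion. The ratio of Cfd to Adipoq was 6.07, 9.10 and 6.97 in icKO libraries, against 8.80, 8.08 and 5.66 in control libraries. These values were interleaved, with a log2 difference of the ratio of -0.03 and a 95% interval of -0.79 to 0.72 (limma, BH-adjusted p = 0.932; exact permutation p = 1). The ratio of Rbp4 to Adipoq was 0.135, 0.186 and 0.117 in icKO libraries, against 0.126, 0.197 and 0.197 in control libraries, a log2 difference of -0.17 with a 95% interval of -0.87 to 0.54 (limma, BH-adjusted p = 0.648; exact permutation p = 0.7). With array weights, which give each library its own precision but whose estimation stopped before it converged for the ratios, both were called lower (log2 difference -0.28 for Cfd and -0.34 for Rbp4). Both intervals still allow a departure from proportion of over 1.5-fold.

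Lep and Retn had lower ratios to Adipoq in all icKO libraries. The ratio of Lep to Adipoq was 0.0103, 0.00256 and 0.0035 in icKO libraries, against 0.0304, 0.0636 and 0.0887 in control libraries, so the highest icKO ratio was below the lowest control ratio. The log2 difference of the ratio, computed with a pseudocount of 0.1 FPKM that exceeds or nearly equals all icKO values of Lep, was -1.84 (SE 0.63, limma, BH-adjusted p = 0.00386). The size depends on that pseudocount, at -3.25 with 0.01 FPKM and 0.43 with 1 FPKM, and without control replicate 3 it did not pass (adjusted p = 0.0866). The ratio of Retn to Adipoq was 0.146, 0.101 and 0.164 in icKO libraries, against 0.297, 0.355 and 0.331 in control libraries, with a log2 difference of -1.18 (SE 0.35, limma, BH-adjusted p = 0.000928). Retn no longer passed against the lipid droplet gene Plin1 in place of Adipoq (adjusted p = 0.0897) or with a pseudocount of 1 FPKM (adjusted p = 0.0708).

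Car3 gave a divided answer. Its ratio to Adipoq was 1.40 and 1.33 in icKO replicates 1 and 2 but 3.86 in icKO replicate 3, against 3.59, 4.10 and 4.23 in control libraries. The library within the control range was the one rich in slow-fibre muscle transcripts. Their part in the ratio was not tested on its own, as the muscle covariate used below averages fast-fibre and slow-fibre genes. The log2 difference of -1.04 (SE 0.38, limma, BH-adjusted p = 0.00656; exact permutation p = 0.2) was -1.54 without icKO replicate 3. It did not pass without icKO replicate 1 or 2, with the muscle covariate or against Plin1 (limma, adjusted p = 0.107, 0.0792, 0.0519 and 0.226).

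Cidec, Fabp4, Pparg and Cebpa had higher ratios to Adipoq in all icKO libraries. The ratio of Cidec to Adipoq was 1.82, 1.70 and 1.65 in icKO libraries, against 0.641, 0.613 and 0.558 in control libraries. Within each group these ratios were nearly constant, although the level of Cidec itself varied 2.07-fold between icKO libraries, as did that of Adipoq by 2.13-fold. The log2 difference was 1.51 (SE 0.37, limma, BH-adjusted p = 5.84e-05), a 2.84-fold higher ratio. Fabp4 had a ratio of 3.42, 4.59 and 3.08 in icKO libraries, against 1.19, 1.04 and 0.967 in control libraries, and Pparg of 0.154, 0.314 and 0.177 in icKO libraries, against 0.0995, 0.0938 and 0.081 in control libraries. For Cebpa it was 0.802, 1.17 and 0.772 in icKO libraries, against 0.207, 0.288 and 0.258 in control libraries. None of these groups overlapped, and the ratios were 3.40-fold, 2.29-fold and 3.60-fold higher in icKO nerves (limma, BH-adjusted p = 3.67e-06, 0.00121 and 4.45e-07). Of the other tested genes, 96.0% likewise had every icKO ratio above every control ratio, and 97.2% were called higher. The ratio of Ppard, a gene with near-equal levels in both groups, was 5.36-fold higher. Cidec, Fabp4, Pparg and Cebpa each passed in every alternative in which they were tested by limma. Which cells of the nerve carried these transcripts was not measured.

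**Figure D3:**
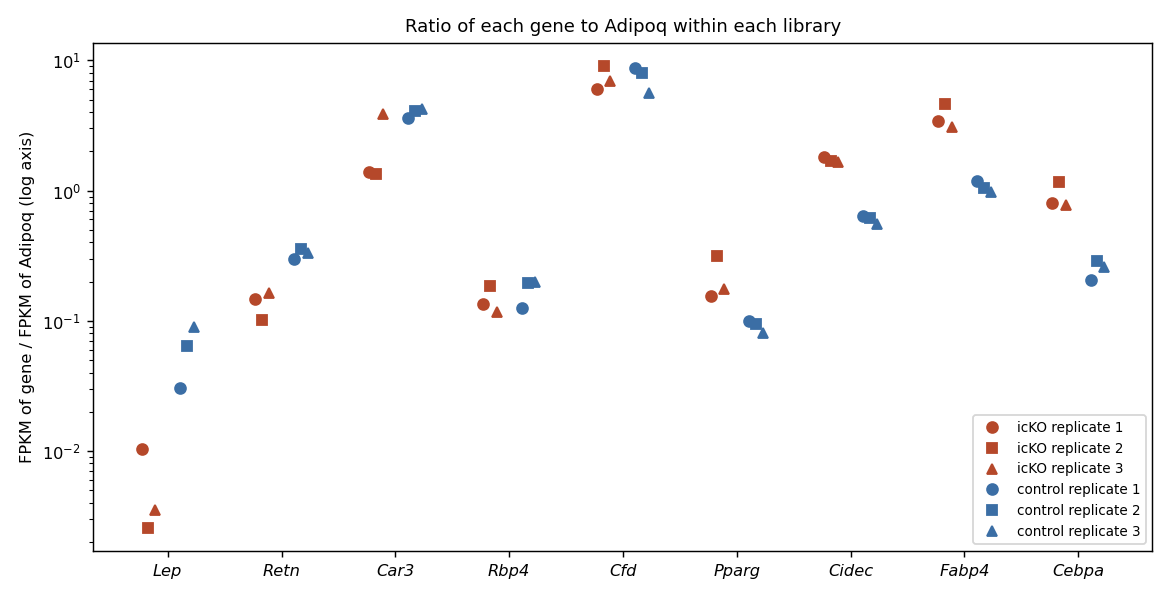
FPKM of each of the other 9 genes divided by that of Adipoq in the same library (log axis), icKO left of control for each gene, with circles, squares and triangles for replicates 1, 2 and 3. Lep and Retn lie lower in icKO libraries, Rbp4 and Cfd overlap, icKO replicate 3 of Car3 lies at 3.86 among the control libraries, and Pparg, Cidec, Fabp4 and Cebpa lie higher in icKO libraries.

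Within the icKO group most of the 10 genes shared their lowest and highest library. Of the 10 genes, 9 were lowest in icKO replicate 2 (Pparg was lowest in replicate 1), and 9 were highest in icKO replicate 3 (Lep was highest in replicate 1). The share of all tested genes with that lowest and highest library was not counted. The Schwann cell gene Pmp2 had the same ones, at 314, 99.1 and 457 FPKM in icKO replicates 1, 2 and 3. Within the control group, 7 genes were lowest in replicate 1 and 3 in replicate 3. The muscle-rich libraries, icKO replicate 3 and control replicate 1, were at opposite ends of their groups for most of the 10 genes.

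Promoter sequence was looked at for the 8 genes with an entry in the RefSeq promoter table (build GRCm38.p6, another build than the GRCm39 named for the FPKM values); Fabp4 and Car3 were not matched. Each window holds 250 bases before and 50 after a gene start, and 12 windows belong to these 8 genes. The motifs searched on both strands were TTGCNNAA, a form of the C/EBP site that includes the palindrome TTGCGCAA, and AGGTCA, the core site of nuclear receptors, with its direct repeat spaced by a single base, to which PPARγ binds with its partner RXR. TTGCNNAA occurred in 4 of the 12 windows, and in 10.8% of all 32851 windows of the table. AGGTCA occurred in 2 of the 12 windows, both of Pparg, and in 16.3% of all windows. The direct repeat occurred in none of the 12 and in 0.0396% of all windows. The 4 windows shown are that of Lep, which kept the smallest share of its level, that of the yardstick, and the C/EBP-bearing windows of a gene that fell less and of a regulator, with matches to TTGCNNAA on either strand in capitals. They are the windows of Lep (chr6:29059971-29060270, plus strand), of Adipoq (chr16:23146286-23146585, plus strand), of the second start of Cidec (chr6:113434715-113435014, minus strand) and of the third start of Pparg (chr6:115421816-115422115, plus strand).
Lep: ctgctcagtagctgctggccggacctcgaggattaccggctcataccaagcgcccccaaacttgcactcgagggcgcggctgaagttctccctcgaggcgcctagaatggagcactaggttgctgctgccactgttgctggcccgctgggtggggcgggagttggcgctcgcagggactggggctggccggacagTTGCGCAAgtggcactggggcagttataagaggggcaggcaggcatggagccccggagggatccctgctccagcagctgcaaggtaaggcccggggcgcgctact
Adipoq: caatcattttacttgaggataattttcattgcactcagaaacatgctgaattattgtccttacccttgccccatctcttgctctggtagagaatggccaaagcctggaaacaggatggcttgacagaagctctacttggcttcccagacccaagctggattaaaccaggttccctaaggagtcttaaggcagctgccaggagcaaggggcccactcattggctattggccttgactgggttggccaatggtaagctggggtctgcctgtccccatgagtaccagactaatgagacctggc
Cidec: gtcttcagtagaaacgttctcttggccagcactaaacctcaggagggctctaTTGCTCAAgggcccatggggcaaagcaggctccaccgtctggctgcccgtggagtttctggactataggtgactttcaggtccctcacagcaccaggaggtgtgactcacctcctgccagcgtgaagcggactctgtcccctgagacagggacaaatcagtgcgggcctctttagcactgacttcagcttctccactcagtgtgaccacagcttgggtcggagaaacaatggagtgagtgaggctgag
Pparg: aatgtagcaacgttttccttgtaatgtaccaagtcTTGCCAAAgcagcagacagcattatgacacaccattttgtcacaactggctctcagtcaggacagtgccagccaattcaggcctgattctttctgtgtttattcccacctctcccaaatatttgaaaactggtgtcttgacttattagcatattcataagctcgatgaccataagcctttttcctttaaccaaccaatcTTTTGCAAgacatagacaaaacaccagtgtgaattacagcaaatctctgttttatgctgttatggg
The Lep window holds the full palindrome, which starts 55 bases before the gene start and occurs in 0.183% of all windows. The Cidec match starts 198 bases before the start, and those of Pparg 215 and 16 bases before it. The Adipoq window shows no capitals, as none of these motifs is in it. A match is a string of letters and was not tested as a binding site, and the gene-level FPKM values do not separate the starts of Pparg or Cidec.

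The other genes of the mature fat cell were lower in most cases, again by unequal amounts. Of 30 listed, 29 were tested. Called lower were 19 (65.5%) and called higher 5 (17.2%), where 22.1% and 20.8% of all tested genes were. The other 5 missed the threshold, and the median log2 difference was -0.92. Orm1, an acute-phase plasma protein gene, and Cyp2e1, a cytochrome P450 gene, had the largest called falls on the log2(FPKM + 1) scale. Orm1 was at 0.17 ± 0.11 FPKM in icKO and 11.01 ± 4.01 FPKM in control nerves, and Cyp2e1 at 3.62 ± 2.01 FPKM in icKO and 40.5 ± 3.41 FPKM in control nerves (SD, n = 3 each; limma, BH-adjusted p = 0.000607 and 0.00108). Orm1 has near-identical copies, so its level is uncertain. Plin4, a lipid droplet coat gene that muscle also expresses, and Slc2a4, the insulin-responsive glucose transporter of fat and muscle, had the largest called rises on that scale. Plin4 was at 85.1 ± 28.9 FPKM in icKO and 10.7 ± 0.49 FPKM in control nerves, and Slc2a4 at 10.3 ± 2.03 FPKM in icKO and 4.65 ± 0.25 FPKM in control nerves (limma, BH-adjusted p = 0.00054 and 0.00272).

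By level left, the 19 genes that fell ranged from 1.58% of the control mean for Orm1 to 58.6% for Lipe, the hormone-sensitive lipase. Some that are close to adipocyte-restricted were singled out after their values were seen, and they were spread over that range. Adrb3, the adrenergic receptor of fat, kept 5.21%, Lgals12, a galectin of adipocytes, 9.34%, Plin1, the coat protein of the adipocyte droplet, 12.8%, Trarg1, a regulator of glucose transporter traffic, 33.3%, and Adig, a small adipocyte protein gene, 42.0%. Set against Adipoq, the ratio of Lgals12 was 0.56-fold and called lower, those of Adrb3 (0.46-fold) and Plin1 (0.69-fold) did not pass, and those of Trarg1 (1.84-fold) and Adig (2.23-fold) were called higher (limma, BH-adjusted p = 0.0416, 0.0652, 0.137, 0.0242 and 0.00117). Of the 29 tested, 4 had a called lower and 21 a called higher ratio to Adipoq in icKO nerves, where 0.264% of all tested genes were called lower and 97.2% higher. Among 17 tested genes known as PPARγ targets, 9 fell (52.9%) and 3 rose (17.6%), where 22.1% and 20.8% of all tested genes did. In the full lists 12 of the targets are also adipocyte genes. Of the tested targets 5 missed the threshold, and the median was -0.68. On the log2(FPKM + 1) scale the largest falls among these were those of Plin1 and of Gpd1, a glycerol phosphate enzyme that kept 27.9%. The largest rises were those of Slc2a4 and of Pdk4, which encodes a kinase that restrains pyruvate use, which was at 41.1 ± 5.71 FPKM in icKO nerves, against 6.71 ± 2.36 FPKM in control nerves (SD, n = 3 each).

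Transcription factors and cofactors that act with Pparg and Cebpa in adipocyte formation were called higher more often than lower. Of 18 tested, 9 rose (50%) and 3 fell (16.7%), where 20.8% and 22.1% of all tested genes did. The other 6 missed the threshold, and the median was 0.28. Cebpd and Cebpb, which precede Cebpa and Pparg in adipogenesis, both rose. Cebpd was at 30.1, 24.9 and 44.3 FPKM in icKO libraries, against 7.48, 7.56 and 8.86 FPKM in control libraries, and Cebpb at 12.2, 10.1 and 22.7 FPKM in icKO libraries, against 4.89, 5.43 and 6.27 FPKM in control libraries (limma, BH-adjusted p = 0.00112 and 0.0124). In both genes every icKO library was above every control library. Rxra, which encodes a retinoid receptor that pairs with PPARγ, was at 20.6 ± 3.65 FPKM in icKO and 10.9 ± 0.80 FPKM in control nerves. On the log2(FPKM + 1) scale the largest rises of the list were those of Klf15, a Krüppel-like factor that promotes adipogenesis, at 72.4 ± 12.9 FPKM in icKO and 14.7 ± 5.43 FPKM in control nerves, and Zbtb16, a zinc finger repressor, at 8.90 ± 1.56 FPKM in icKO and 1.45 ± 0.47 FPKM in control nerves (SD, n = 3 each). The largest falls on that scale were those of Nr1h3, the sterol-sensing receptor LXRα, at 4.54 ± 0.55 FPKM in icKO and 10.3 ± 0.09 FPKM in control nerves, and of Stat5a, at 2.72 ± 0.27 FPKM in icKO and 4.06 ± 0.38 FPKM in control nerves. By level left Stat5a, at 67.1%, was behind Zfp423, a preadipocyte zinc finger factor that also fell and kept 58.1%. All of these factors are also expressed outside fat cells, and which cells of the nerve carried them was not measured.

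**Figure D4:**
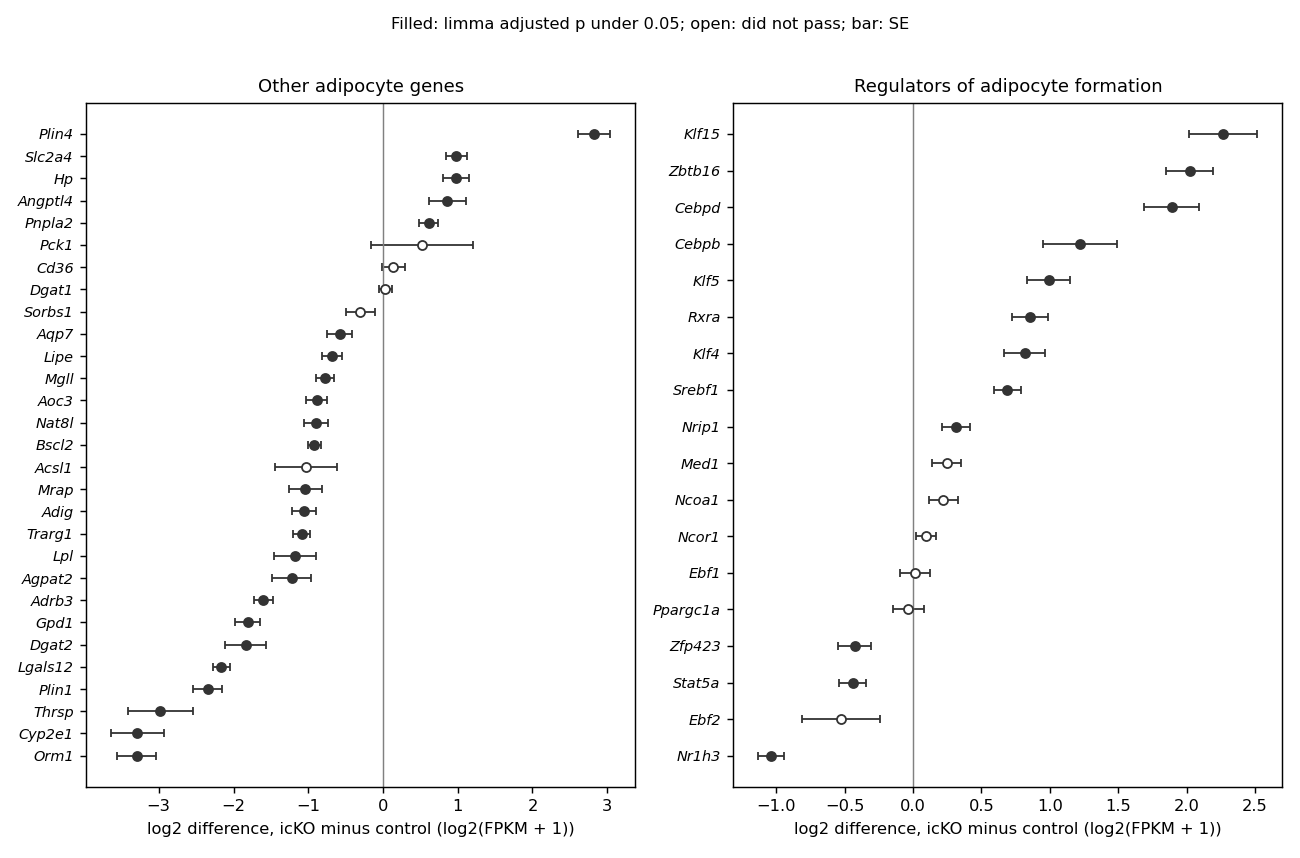
Difference of icKO minus control on the log2(FPKM + 1) scale, with SE, for 29 tested adipocyte genes and 18 regulators of adipocyte formation. Filled symbols passed at a limma adjusted p under 0.05: 19 adipocyte genes lie to the left of 0 and 5 to the right, and 3 regulators to the left and 9 to the right.

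The receptors and partners of the secreted products gave mixed results. Of 8 tested receptors and partners, 3 fell (37.5%) and 1 rose (12.5%), where 22.1% and 20.8% of all tested genes did. The other 4 did not pass. Stra6, which takes up retinol from RBP4, was at 2.17, 0.772 and 3.01 FPKM in icKO libraries, against 8.31, 10.2 and 8.98 FPKM in control libraries, with 21.6% left (limma, BH-adjusted p = 0.00338). Its icKO libraries were all below the control libraries, as were those of its ligand. Of the adiponectin receptors, Adipor1 did not pass, at 51.0 ± 4.56 FPKM in icKO and 43.4 ± 1.82 FPKM in control nerves (limma, BH-adjusted p = 0.0870). Adipor2 was at 32.6 ± 7.81 FPKM in icKO and 22.3 ± 1.32 FPKM in control nerves (SD, n = 3 each; adjusted p = 0.0418), a rise that did not pass without control replicate 1, 2 or 3. The leptin receptor gene Lepr, at 2.49 ± 0.29 FPKM in icKO and 4.06 ± 1.24 FPKM in control nerves, did not pass either (adjusted p = 0.0525), although its groups did not overlap.

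Of 15 tested genes of the same families as the 10, 5 fell (33.3%) and 4 rose (26.7%), near the 22.1% and 20.8% of all tested genes, and 6 missed the threshold. The PPAR relative Ppard was at 2.18 ± 0.26 FPKM in icKO and 2.17 ± 0.21 FPKM in control nerves (limma, BH-adjusted p = 0.969). Of the fatty acid-binding proteins, Fabp5 fell to 6.10 ± 1.38 FPKM in icKO nerves, against 18.1 ± 1.43 FPKM in control nerves, and Pmp2, the myelin member that Schwann cells make, was at 314, 99.1 and 457 FPKM in icKO libraries, against 839, 804 and 794 FPKM in control libraries (adjusted p = 0.00112 and 0.0331). Pmp2 was lowest in icKO replicate 2 and highest in icKO replicate 3, the same order as Fabp4. Car13, a cytosolic carbonic anhydrase, fell to 1.45 ± 0.41 FPKM in icKO nerves, against 7.37 ± 1.03 FPKM in control nerves. Its membrane-bound relative Car14 rose to 10.6 ± 0.43 FPKM in icKO nerves, against 6.55 ± 0.42 FPKM in control nerves (adjusted p = 0.00177). The counts of risers include Cebpb and Cebpd, given above. Retnla, a resistin-like gene of macrophages and fat, fell to 4.31 ± 0.84 FPKM in icKO nerves, against 25.5 ± 11.8 FPKM in control nerves (SD, n = 3 each; limma, BH-adjusted p = 0.00259, and 0.000633 for Car13).

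The genes whose profile over the 6 libraries was most like that of Adipoq were outside the adipocyte lists. Likeness was measured as the root mean square difference between log2(FPKM + 0.1) profiles, each centred on its own mean, among 6885 other genes with a symbol and a mean of at least 5 FPKM. The 5 nearest were Zdhhc2 (0.18), a palmitoyltransferase gene, Anxa5 (0.18), which encodes annexin A5, Padi2 (0.20), a peptidylarginine deiminase gene, Kctd11 (0.23), and Fn1 (0.25), the matrix protein fibronectin. Fn1, for one, was at 8.55 ± 2.69 FPKM in icKO and 49.6 ± 15.6 FPKM in control nerves (SD, n = 3 each). Cfd came next among the adipocyte genes followed here, as the 8th nearest with a distance of 0.26, and Rbp4 was the 17th with 0.31. Retn, Car3 and Cidec were at 0.62, 0.72 and 0.76 (ranks 157, 273 and 314). Fabp4 and Cebpa were farther, at 0.90 and 0.95 (ranks 701 and 892). Pparg and Lep, with means too low for this ranking, were at 0.68 and 1.05.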

How the data were processed

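Polyadenylated RNA of 3 icKO and 3 control sciatic nerves was measured, with groups and replicate numbers taken from the sample titles. Expression is in FPKM, as deposited by the authors in a single table of 55335 Ensembl gene IDs. The build GRCm39 and the tools StringTie 1.3.1c, STAR, FastQC 0.11.2 and DESeq2 1.16.1 are named, without roles, per the submitters' processing notes. The annotation release, strandedness and treatment of multi-mapping reads, not given in the sources used here, could affect the values. Each value is relative to its library's total, and near-identical genes can share fragments. Symbols were matched by gene ID for 55154 IDs, through a table of gene names. Depth was estimated from the smallest FPKM steps of 34186 genes with 1 transcript in GENCODE M21, which is of another build.

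Each gene with a mean of at least 1 FPKM was tested with limma 3.58.1 (R 4.3.3) on log2(FPKM + 1), two-sided, with a variance trend and no covariate, and p-values were adjusted by Benjamini-Hochberg over 12860 genes. A gene rose or fell, in icKO relative to control, at an adjusted p under 0.05. The ratio to Adipoq was fitted likewise on log2(FPKM + 0.1). Of 215 list entries 213 were matched. The 10 genes and all lists were chosen with earlier results of these data known. Named besides the 10 are the 2 largest called falls and rises of the main lists, receptors, partners and relatives, and the 5 genes most like Adipoq. Alternatives covered pseudocount, filter, threshold, scaling, variance model, denominator, muscle covariate and libraries left out. Of these, the exact test of ratios and list counts without both muscle-rich libraries were added after the data were seen. The comparison of icKO with control was tested on simulated data with independent noise. For the ratio to Adipoq the simulation checked the arithmetic only, not false calls.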

Additional observations from a re-analysis of the deposited data

How the results depend on the processing

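The direction of icKO minus control was kept by each of the 10 genes in each alternative that gave a value. Of 376 results for single genes, 339 kept direction and side of the threshold, 18 no longer passed, 10 newly passed and 9 turned direction. These include the exact permutation test of the ratios, which cannot give a p below 0.1, so that no gene could pass in it. They also include a looser adjusted p threshold of 0.1, which can only keep or add calls. Lep and Pparg have no value at a mean of at least 5 FPKM, where 3308 genes were called, 1612 lower and 1696 higher. Leaving out single libraries gave 3750 to 5458 called genes and 8 to 10 of the 10 genes lower. The rise of Adipor2 was lost (0 receptors or partners higher) without control replicate 1, 2 or 3 or both muscle-rich libraries, and the count was 0 to 1 over single libraries left out.

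For the ratio to Adipoq, 29704 genes were called without a filter (29660 higher) and 6761 at a mean of at least 5 FPKM (6744 higher and 17 lower). Genes with a lower ratio numbered 93 with array weights (estimation not converged), 11 with a pseudocount of 1 FPKM and 11 against Plin1, and of the 9 adipocyte genes 5, 1 and 1 were then lower. The cause was not tested. The ratio of Cfd, near 0, turned positive without both muscle-rich libraries (0.12), against Plin1 (0.50) and against the mean of Adipoq, Retn, Cidec and Plin1 (0.019), and was -0.22 to 0.10 with single libraries left out (0.10 without icKO replicate 1, 0.09 and 0.03 without control replicates 1 and 2). The ratio of Rbp4 turned positive with a pseudocount of 1 FPKM (0.28) and against Plin1 (0.37), and that of Lep with a pseudocount of 1 FPKM (0.43), a level above every icKO value of Lep.

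Replicate numbers did not pair the libraries: deviations of same-numbered libraries correlated at -0.10, 0.04 and -0.05. With the replicate number as a block, 4596 genes were called and 9 of the 10 genes were lower, and in the ratio to Adipoq 12519 genes were called, with 3 adipocyte genes lower and 4 higher. Depth limits Lep most, at 1 to 6 fragments in icKO libraries.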

Other observations

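Of 10 listed brown fat markers, 5 passed the filter. Ucp1, the uncoupling protein that defines brown adipocytes, was at 0 to 0.0935 FPKM in icKO libraries and at 0 to 0.0709 FPKM in control libraries, below the filter. Cidea, a lipid droplet protein gene typical of brown fat, was also below the filter and untested, at 0.299, 0.807 and 1.14 FPKM in icKO libraries, against 0.104, 0.0433 and 0.174 FPKM in control libraries, with every icKO library higher. Of 5 tested brown fat genes, 2 fell (40%) and 0 rose (0 also at an unadjusted p under 0.05). The other 3, Prdm16, Ppargc1a and Cox8b, did not pass in limma. Of all tested genes 22.1% fell and 20.8% rose. The summed level of the 10 listed brown fat genes was 8.67 to 20.1 FPKM in icKO libraries and 21.2 to 23.5 FPKM in control libraries. The highest icKO sum was that of the muscle-rich replicate 3, where Cox8b alone was at 8.95 FPKM. Otop1, a proton channel gene of brown fat, was at 0.267, 0.290 and 0.441 FPKM in icKO libraries, against 5.35, 5.43 and 6.04 FPKM in control libraries, with 5.94% left (limma, BH-adjusted p = 0.000242). The other gene that fell, Cox7a1, a subunit of cytochrome oxidase in fat and muscle, was at 1.78 ± 0.57 FPKM in icKO and 4.32 ± 0.85 FPKM in control nerves (SD, n = 3 each; adjusted p = 0.00761).

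Of 13 tested markers of fat cell progenitors, 3 fell (23.1%) and 2 rose (15.4%), near the 22.1% and 20.8% of all tested genes. The other 8 missed the threshold, and the median log2 difference was -0.16. Dlk1, which encodes the preadipocyte factor that restrains differentiation, was at 6.33, 5.72 and 7.43 FPKM in icKO libraries, against 0.812, 1.32 and 1.31 FPKM in control libraries (limma, BH-adjusted p = 0.000538). Pdgfra, a receptor of fibroblasts and fat cell progenitors, was at 18.6 ± 1.02 FPKM in icKO and 12.1 ± 3.39 FPKM in control nerves (adjusted p = 0.0404). Cd55, a complement regulator found on early progenitors, was at 4.44 ± 1.03 FPKM in icKO and 19.8 ± 1.17 FPKM in control nerves, and Bmp7, a growth factor, at 10.5 ± 2.20 FPKM in icKO and 30.5 ± 0.88 FPKM in control nerves (SD, n = 3 each; adjusted p = 0.000442 and 0.000888).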
